A study of Mus musculus with 5 samples.

Results

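The immunity-related GTPases (IRGs) are a mouse gene family induced by interferon, and 8 genes are described here across kidneys of mice given DMXAA or vehicle. They are Irgm1, Irgm2, Igtp, Iigp1, Ifi47, Tgtp1, Tgtp2 and the very large interferon-inducible GTPase Gvin1. They were chosen by gene symbol, and 8 of 8 were found among the 54532 gene IDs of the count table. DMXAA is a small molecule that binds and activates mouse STING, the adaptor through which DNA in the cytosol induces interferon. The treated mice were wild-type C57BL/6J males, 8 weeks old, given 10 mg/kg DMXAA into the peritoneum once daily for 3 days, with kidneys taken on day 3 (2 libraries). The other mice were wild-type C57BL/6J males of the same age given vehicle on the same schedule (3 libraries). The samples are numbered as replicates, but whether every one is its own mouse is not stated, and p-values therefore measure the spread between samples.

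IRG proteins are GTPases that gather on the membranes of vacuoles holding intracellular parasites or bacteria, and help to break those vacuoles open. Members with a methionine codon in the first nucleotide-binding loop (Irgm1, Irgm2 and Igtp, also called Irgm3) sit on the cell's own membranes and hold the other IRG proteins inactive there. Members with the usual lysine at that place (Iigp1, Ifi47, Tgtp1 and Tgtp2, also called Irga6, Irgd and Irgb6) are the ones that load onto the vacuole. Interferon gamma is their best known inducer, and type I interferon also induces them.

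The loop that divides the family is shown as coding sequence, read from GENCODE M21 transcripts on the mm10 assembly, with the codon for methionine or lysine in capitals. Irgm1, Irgm2 and Igtp are identical over this stretch, as are Tgtp1 and Tgtp2. Iigp1, not shown, also holds a lysine codon there.
Irgm1, Irgm2 and Igtp: ggggactctggcaatggcATGtca
Ifi47: gggcagtctgggactggcAAGtcc
Tgtp1 and Tgtp2: ggggaaacaggcgcagggAAGtcc

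The genes lie in clusters. Irgm1 (ENSMUSG00000046879, chr11:48861968-48871683, minus strand), Tgtp1 (ENSMUSG00000078922, chr11:48985327-48994172, minus strand), Tgtp2 (ENSMUSG00000078921, chr11:49057194-49064206, minus strand) and Ifi47 (ENSMUSG00000078920, chr11:49076587-49096974, plus strand) fall within 235.0 kb. Igtp (ENSMUSG00000078853, chr11:58199556-58207591, plus strand) and Irgm2 (ENSMUSG00000069874, chr11:58199618-58222782, plus strand) overlap each other in a second cluster on the same chromosome. Iigp1 (ENSMUSG00000054072, chr18:60376027-60392634, plus strand) and Gvin1 (ENSMUSG00000045868, chr7:106156556-106215326, minus strand) lie elsewhere. All 8 are annotated as protein-coding, and the counts are over their exons as the deposited gene IDs define them.

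How far reads can be assigned to a single copy differs between members. Tgtp1 and Tgtp2 are identical at 1244 of 1248 aligned coding bases (99.7%), and 83.3% of the 100-base windows in Tgtp1 transcripts also occur in another gene, mostly Tgtp2. For Gvin1 that share is 97.8%, with its copies in neighbouring genes such as Gm4070. Windows shared with other genes make up 5.7% of Igtp, 2.5% of Irgm2, 0.8% of Ifi47, 0.0% of Irgm1 and 0.0% of Iigp1. The levels of Tgtp1, Tgtp2 and Gvin1 are therefore uncertain, and Tgtp1 and Tgtp2 are also given as a sum. The methionine-type trio is far less alike, with 67.3 to 73.0% of aligned coding bases identical between pairs.

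Since levels of the members varied together across the libraries, their promoters are shown. RefSeq windows (GRCm38.p6, 250 bases before to 50 after the start) were matched for 6 of the 8 members, all but Iigp1 and Gvin1. They were searched on both strands for TTCNNNGAA, the letters of the gamma-activated site, and for a GAAA pair (GAAA, any 2 bases, GAAA), the core of the interferon-stimulated response element. In 4 of the 6 windows a TTCNNNGAA was followed after 2 bases by a GAAA pair, both shown in capitals.
Igtp, chr11:58199499-58199543, plus strand: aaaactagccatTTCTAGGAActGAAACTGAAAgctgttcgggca
Irgm2, chr11:58214890-58214934, plus strand: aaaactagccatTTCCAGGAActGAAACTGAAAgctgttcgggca
Tgtp1, chr11:48992302-48992346, minus strand: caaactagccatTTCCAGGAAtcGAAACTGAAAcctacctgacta
Tgtp2, chr11:49064261-49064305, minus strand: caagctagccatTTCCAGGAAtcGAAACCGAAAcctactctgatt
The Irgm1 window held 2 GAAA pairs that share their middle GAAA, in capitals, and no TTCNNNGAA.
Irgm1, chr11:48871423-48871462, minus strand: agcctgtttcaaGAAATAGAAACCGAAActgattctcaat
The Ifi47 window held neither set of letters. Of 32851 mouse promoter windows of the same length, 8.3% held TTCNNNGAA, 3.44% held a GAAA pair and 0.454% held both. The windows follow RefSeq starts. Those of Irgm2 and Tgtp1 lie inside the longer GENCODE gene spans given above, and not at the outer start of those spans. A match of letters is a description and not a binding site, and binding of factors was not measured here.

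Libraries held 18176586 and 20264228 counts for DMXAA and 17667490 to 18552912 for vehicle, and levels are given as normalised CPM, which scale counts to library size. All 12 kidney epithelium markers were detected, with summed levels of 14100 and 15300 CPM in DMXAA libraries and 11600 to 14100 CPM in vehicle libraries. The vehicle libraries were not alike. Vehicle library 1 held more adipocyte marker RNA than the others (706 CPM summed, against 49.4 and 58.5 CPM in DMXAA libraries and 30.4 and 53.5 CPM in vehicle libraries 2 and 3). Vehicle library 2 held far more IRG transcripts than vehicle libraries 1 and 3, and the comparison of groups for each of the 8 genes is given with and without it. That library was singled out after its values were seen. The columns of the count table carry short names and were assigned to samples by those names, and whether the label of vehicle library 2 fits its RNA was not tested.

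Summed over the 8 genes, the level was 927.9 and 878.8 CPM in the DMXAA libraries, against 237.2, 2382 and 330.9 CPM in vehicle libraries 1, 2 and 3. Those sums rest on 16722 and 17666 counts in DMXAA and on 4387, 41907 and 5966 counts in vehicle. In bulk kidney, fewer cells of a type and less RNA per cell cannot be told apart. Both DMXAA kidneys lay above vehicle libraries 1 and 3 and below vehicle library 2. For 7 of the 8 genes vehicle library 2 was the highest of the 5 libraries, which held for 25.8% of the 16226 genes tested. With all 5 libraries, edgeR's quasi-likelihood test called none of the 8 genes at an adjusted p below 0.05, and it called 0% of all tested genes. At an unadjusted p below 0.05 none of the 8 was counted either, against 6.55% of all genes. DESeq2 called 54 genes in all, none of them a member.

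**Figure D1:**
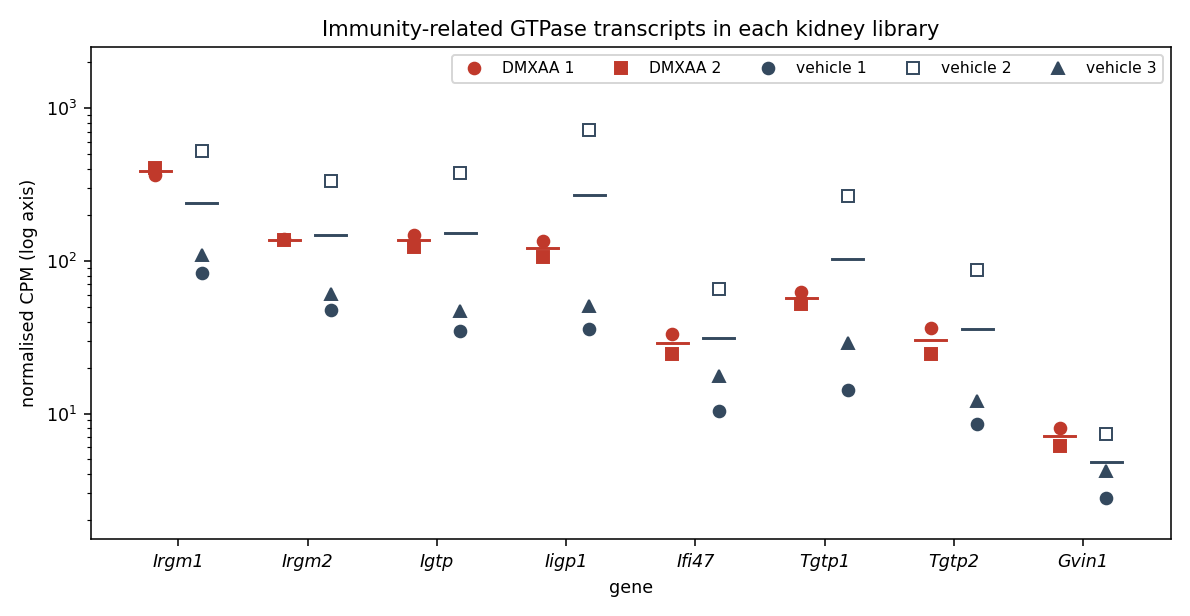
Normalised CPM of the 8 genes (log axis) in each library, with DMXAA libraries in red and vehicle libraries in dark blue, and the horizontal bars marking group means (n = 2 and 3). The open square, vehicle library 2, lies above both DMXAA libraries for 7 genes, while vehicle libraries 1 and 3 lie below both for all 8.

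Of the methionine-type regulators, Irgm1 (LRG-47), needed in mice for resistance to several intracellular bacteria, was at 366 and 407 CPM in DMXAA libraries, against 83.0, 527 and 109 CPM in vehicle libraries 1, 2 and 3. The group means were 386 ± 28.7 CPM in DMXAA (SD, n = 2) and 240 ± 249 CPM in vehicle (SD, n = 3), and the groups overlapped through vehicle library 2 alone. Its log2 fold change, DMXAA over vehicle, was 0.69 (SE 0.73), with an adjusted p of 0.843 in edgeR's quasi-likelihood test. Without vehicle library 2 the same test gave 2.01 (SE 0.16, adjusted p = 0.0917), the largest estimate of the 8 genes. Every estimate without that library rests on vehicle libraries 1 and 3 alone. Vehicle library 1 was the lowest library for each member and held the most adipocyte and urothelial marker RNA.

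Irgm2 and Igtp are its partners, found on Golgi membranes and on endoplasmic reticulum and lipid droplets, and for both vehicle library 2 was farther above the DMXAA libraries than for Irgm1. Irgm2 had 138 and 136 CPM in DMXAA libraries, against 47.9, 335 and 60.3 CPM in vehicle libraries 1, 2 and 3. Igtp had 148 and 123 CPM in DMXAA libraries, against 34.5, 378 and 47.2 CPM in vehicle libraries. Vehicle library 2 stood 2.42-fold above the higher DMXAA library for Irgm2 and 2.54-fold for Igtp, against 1.30-fold for Irgm1. Mean levels were 137 ± 1.93 CPM in DMXAA and 148 ± 162 CPM in vehicle for Irgm2, and 136 ± 18.1 CPM in DMXAA and 153 ± 195 CPM in vehicle for Igtp (SD, n = 2 and 3). The log2 fold changes were -0.11 (SE 0.79) for Irgm2 and -0.17 (SE 0.96) for Igtp, with adjusted p of 0.985 and 0.978 in edgeR's test. Leaving out vehicle library 2 turned the sign, to 1.34 (SE 0.13) for Irgm2 and 1.73 (SE 0.18) for Igtp, each with an edgeR adjusted p of 0.0917. Their exons overlap by 162 bases on the same strand, and reads within that stretch cannot be told apart.

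Among the lysine-type effectors, Iigp1, which binds and helps to disrupt the Toxoplasma vacuole membrane, had the largest excess in vehicle library 2 of the 8 genes. It was at 135 and 106 CPM in DMXAA libraries, against 35.6, 717 and 50.8 CPM in vehicle libraries 1, 2 and 3. Vehicle library 2 was thus 16.4-fold above the mean of vehicle libraries 1 and 3 and 5.30-fold above the higher DMXAA library. By that last measure, taken after adding 0.5 CPM, Iigp1 ranked 2 among all 16226 tested genes. Its log2 fold change was -1.15 (SE 1.23, adjusted p = 0.843 in edgeR's test), and 1.48 (SE 0.20, adjusted p = 0.203) without vehicle library 2.

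Tgtp1 and Tgtp2 are the near-identical pair that encodes Irgb6, another effector of the vacuole. Tgtp1 was at 62.8 and 52.1 CPM in DMXAA libraries, against 14.3, 266 and 29.0 CPM in vehicle libraries 1, 2 and 3. Tgtp2 was at 36.5 and 24.5 CPM in DMXAA libraries, against 8.60, 87.0 and 12.1 CPM in the vehicle ones. As a sum, the pair had 99.2 and 76.6 CPM in DMXAA libraries and 22.9, 353 and 41.2 CPM in vehicle libraries. Both DMXAA libraries lay between vehicle library 2 and the other vehicle libraries for each copy and for the sum. The log2 fold change was -0.84 (SE 1.11, adjusted p = 0.874) for Tgtp1, -0.24 (SE 0.93, adjusted p = 0.967) for Tgtp2 and -0.66 (adjusted p = 0.898) for the sum, all by edgeR's test. Without vehicle library 2 it was 1.41 (SE 0.32, adjusted p = 0.342) for Tgtp1 and 1.56 (SE 0.25, adjusted p = 0.258) for Tgtp2.

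Ifi47 and Gvin1 had the smallest excesses of the 8 over vehicle libraries 1 and 3, both in the DMXAA mean (2.02- and 1.89-fold) and in vehicle library 2 (4.50- and 1.95-fold). These folds were taken after adding 0.5 CPM to each level. Ifi47, which encodes Irgd, was at 33.0 and 24.7 CPM in DMXAA libraries, against 10.4, 65.0 and 17.7 CPM in vehicle libraries 1, 2 and 3. Its log2 fold change was -0.10 (SE 0.70, adjusted p = 0.983 in edgeR's test), and 1.04 (SE 0.28, adjusted p = 0.355) without vehicle library 2. Gvin1 was the exception to the pattern, at 8.05 and 6.12 CPM in DMXAA libraries, against 2.81, 7.33 and 4.22 CPM in vehicle libraries. It was highest in DMXAA library 1, and its vehicle library 2 lay between the DMXAA libraries. Its level is uncertain, since 97.8% of its 100-base windows also occur in other genes. The Gvin1 log2 fold change was 0.57 (SE 0.39, adjusted p = 0.790 in edgeR's test), and 1.01 (SE 0.29, adjusted p = 0.362) without vehicle library 2.

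Set side by side, estimates with all libraries were above 0 for 2 of the 8 genes (Irgm1 and Gvin1), with a median log2 fold change of -0.14, against -0.015 over all genes. Over all tested genes, 7614 of 16226 estimates with all libraries were above 0. Without vehicle library 2 the members' estimates were above 0 for 8 of 8, with a median of 1.44, against -0.004 over all genes. At an unadjusted p below 0.05 edgeR's test then counted all 8 as higher and 0 as lower, where 6.73% of 16036 genes were higher and 5.08% lower. After adjustment over all genes it called none of the 8 and 0% of all genes, with adjusted p of 0.0917 to 0.362 for the members. Both DMXAA libraries lay above vehicle libraries 1 and 3 for all 8 genes, which was so for 22.9% of genes. Vehicle library 2 was set aside after the members were seen to be high in it. The members' results without it therefore follow in part from that choice, and shares over all genes are no fair measure for them. The 2 DMXAA values exceeded all 3 vehicle values for none of the 8, against 13.7% of genes, and fell below them for none, against 12.3% of genes. Leaving out any other library gave medians of -0.59, -0.54, -0.32 and -0.01, in turn for vehicle library 1, vehicle library 3, DMXAA library 1 and DMXAA library 2. Leaving out DMXAA library 2 turned Ifi47 to 0.09 and Tgtp2 to 0.02.

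**Figure D2:**
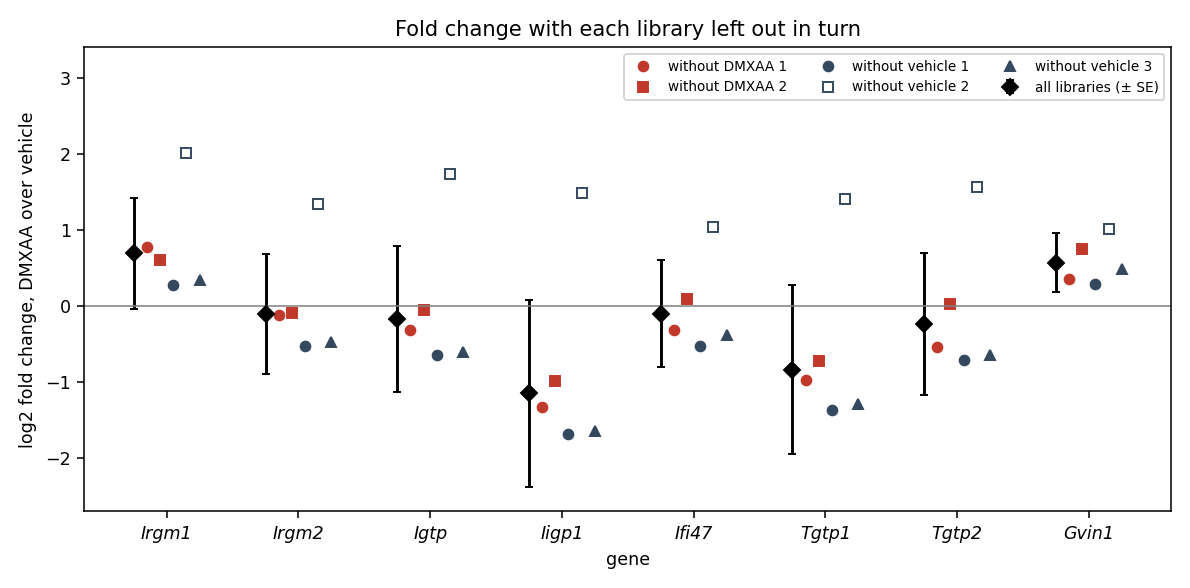
Log2 fold change, DMXAA over vehicle, of each of the 8 genes with all libraries (black diamonds, bars ± SE) and with each library left out in turn. The open squares, without vehicle library 2, lie between 1.01 and 2.01 and above every other estimate of the same gene.

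The make-up of the family differed between libraries as well as its level. The ratio of summed lysine-type to summed methionine-type CPM was 0.409 and 0.312 in DMXAA libraries, against 0.416, 0.916 and 0.506 in vehicle libraries 1, 2 and 3. Both DMXAA libraries were below all vehicle libraries, although DMXAA library 1 and vehicle library 1 nearly met, and vehicle library 2 stood far above the other four. Iigp1 set against Irgm1 gave 0.369 and 0.261 in DMXAA, against 0.428, 1.36 and 0.464 in vehicle. Irgm1 made up 39.4 and 46.3% of the family's counts in DMXAA libraries, against 35.0, 22.1 and 33.1% in vehicle libraries. Iigp1 made up 14.5 and 12.1% in DMXAA libraries, against 15.0, 30.1 and 15.4% in vehicle libraries. These shares are of counts and are not corrected for transcript length. An exact permutation test of 2 against 3 libraries cannot go below p = 0.1 one-sided or 0.2 two-sided, so the ratios are given without one. Within the methionine type, Igtp over Irgm2 was 1.07 and 0.906 in DMXAA and 0.721, 1.13 and 0.783 in vehicle. Tgtp1 over Tgtp2 was 1.72 and 2.12 in DMXAA and 1.67, 3.06 and 2.39 in vehicle.

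**Figure D3:**
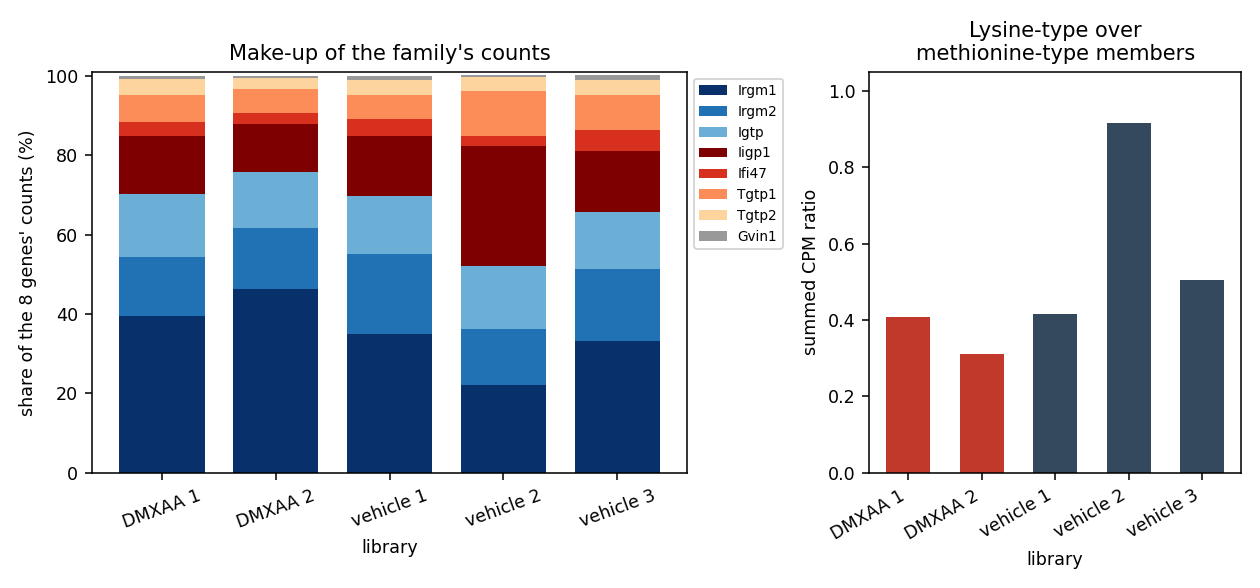
Left, the share of each gene in the counts of the 8 genes together, per library, with methionine-type genes in blue, lysine-type genes in red and Gvin1 in grey. Right, the ratio of summed lysine-type to summed methionine-type CPM per library, which is 0.312 to 0.506 in 4 libraries and 0.916 in vehicle library 2.

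Per kilobase of each gene's longest coding transcript, Irgm1 was the most abundant member, at 171 ± 12.7 CPM per kb in DMXAA kidneys (SD, n = 2) and 36.8, 233 and 48.5 CPM per kb in vehicle libraries 1, 2 and 3. Igtp came after it in 4 of the 5 libraries, with 67.1 ± 8.94 CPM per kb in DMXAA and 17.1, 187 and 23.3 CPM per kb in vehicle, and after Iigp1 in vehicle library 2. Irgm2 (38.8 ± 0.548) and Iigp1 (38.6 ± 6.48) could not be ordered in DMXAA kidneys, where Iigp1 was above Irgm2 in 1 library and below it in the other. Iigp1 was below Irgm2 in vehicle libraries 1 and 3 (11.4 and 16.3, against 13.6 and 17.1 CPM per kb) and above it in vehicle library 2 (230, against 94.9 CPM per kb). Tgtp1 (20.3 ± 2.67) and Ifi47 (16.3 ± 3.31) overlapped in range between DMXAA kidneys, although Tgtp1 was higher within each (22.2 against 18.6 and 18.5 against 13.9 CPM per kb), and Tgtp2 (10.9 ± 3.0) and Gvin1 (0.787 ± 0.151) came last. The order rests on the transcript model, since by the union of all annotated exons Igtp came first in 4 of the 5 libraries.

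Few genes shared the excess in vehicle library 2. In 20 genes (0.123% of those tested) that library was at least 2-fold above every other, after adding 0.5 CPM, and 5 of these were members, namely Iigp1, Tgtp1, Igtp, Irgm2 and Tgtp2. A further 7 came from the lists of interferon gamma signalling and responsive genes, among them Ciita (the master regulator of class II histocompatibility genes), Irf1, the peptide transporter Tap1, the immunoproteasome subunits Psmb9 and Psmb10, and the chemokine Cxcl10. The remainder included the IRG genes Gm12185 and Gm4841 (Ifgga3 in RefSeq), and Apol9b. Exons of Gm12185 overlap those of Tgtp1 by 223 bases on the same strand, so its counts may not be independent of that member. The remainder also held the glycolytic gene Gapdh, at 8.10 and 7.86 CPM in DMXAA libraries, against 7.46, 217 and 5.05 CPM in vehicle libraries 1, 2 and 3. By this excess Gapdh ranked 1 among all tested genes, at 25.2-fold. Its counts were 146 and 158 in DMXAA and 138, 3809 and 91 in vehicle. How multiply mapping reads were handled is not stated, and a technical difference of vehicle library 2 was not tested.

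A wider set of 38 genes (0.234%) had both DMXAA libraries and vehicle library 2 at least 2-fold above vehicle libraries 1 and 3. It held 5 members, Iigp1, Igtp, Tgtp2, Irgm2 and Irgm1. It also held Gm4841, 5 further IRG genes, 8 type I interferon responsive genes, 1 interferon gamma responsive gene and 6 genes of the guanylate-binding proteins, another family of interferon-induced GTPases.

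The rest of the IRG and very large GTPase family behaved in part like the members. Of 14 listed genes 13 were in the table and 11 passed the expression filter, of which 10 had estimates above 0 and 2 an unadjusted p below 0.05 in edgeR's test, against 3.89% of all genes counted as higher. These 2 were 9930111J21Rik1 (log2 fold change 0.87, SE 0.31) and Gm8995 (0.32, SE 0.13), and neither was called after adjustment. GENCODE M21 annotates Gm8995 as a transcribed unprocessed pseudogene. Estimates were above 0 for 2 of the 8 members and for 7614 of all 16226 tested genes. The median of the list was 0.26, against -0.015 over all genes, and 0.82 without vehicle library 2. Gm12250, which encodes Irgb10, was at 6.49 and 5.97 CPM in DMXAA libraries, against 2.05, 13.4 and 2.22 CPM in vehicle libraries 1, 2 and 3. GENCODE M21 annotates Gm12250 as a processed pseudogene. Gm12185 was at 3.16 and 2.04 CPM in DMXAA libraries, against 0.973, 7.33 and 0.832 CPM in vehicle libraries.

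For Gm4951 and Gm5431 vehicle library 2 was close to the DMXAA libraries. Gm4951, from the same cluster as Iigp1, was at 11.0 and 10.3 CPM in DMXAA libraries, against 2.00, 11.7 and 3.77 CPM in vehicle libraries, and Gm5431 was at 4.33 and 3.43 CPM, against 1.35, 4.32 and 1.44 CPM. F830016B08Rik, also from that cluster, was higher in vehicle library 2 than in DMXAA, at 5.16 and 4.68 CPM in DMXAA libraries, against 1.14, 9.95 and 2.16 CPM in vehicle libraries. Irgq, a relative thought to lack GTPase activity, stood at 43.8 and 42.8 CPM in DMXAA, against 34.8, 41.3 and 41.9 CPM in vehicle. The testis gene Irgc1 had a count of 0 in every library. If 3 counts are taken as the limit, its level could be as high as 0.149 to 0.171 CPM, depending on the library (counting error only).

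In the 12 tested genes that flank the clusters, vehicle library 2 was at most 1.22-fold above the mean of vehicle libraries 1 and 3. Trim7, beside the Irgm1 cluster, was at 137 and 117 CPM in DMXAA libraries, against 111, 123 and 102 CPM in vehicle libraries 1, 2 and 3. Zfp672, beside Irgm2, was at 36.5 and 41.0 CPM in DMXAA, against 36.5, 37.7 and 37.6 CPM in vehicle. Dctn4, beside Iigp1, was at 45.4 and 51.2 CPM in DMXAA, against 53.3, 51.1 and 50.5 CPM in vehicle. Cnot8 (33.4 and 31.7 CPM in DMXAA, against 39.0, 40.3 and 39.7 CPM in vehicle) and Rbm22 (22.6 and 23.7 CPM, against 27.1, 26.9 and 28.5 CPM) were lower in DMXAA at an unadjusted p of 0.0144 and 0.0362 in edgeR's test, and neither was called. Zfp692 was at 9.05 and 9.15 CPM in DMXAA, against 17.3, 10.8 and 8.65 CPM in vehicle. Olfr56, whose exons overlap those of Ifi47, ordered its libraries much as the members did, at 1.28 and 1.69 CPM in DMXAA, against 0.324, 1.88 and 0.444 CPM in vehicle. Inside the Irgm1 cluster, Psme2b, a copy of an immunoproteasome activator gene, had 24.5 and 22.1 CPM in DMXAA, against 20.8, 38.9 and 18.0 CPM in vehicle. Gm4841, the IRG gene between Gm4951 and Iigp1 that was not on the list, had 3.44 and 2.74 CPM in DMXAA, against 0.649, 14.8 and 0.998 CPM in vehicle.

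The genes with the profile nearest to the members' mean over the 5 libraries were sought among 13320 genes with an average log2 CPM above 1, by the root mean square difference of centred log2 CPM. The nearest were F830016B08Rik (0.185), Gm12250 (0.21), Cxcl10 (0.23), Gm12185 (0.28), Apol9b and Gm4841 (0.307 each), Tap1 (0.315), Gbp2 (0.335), Gbp6 (0.348) and Apol9a (0.36). Members themselves lay at 0.118 (Irgm2) to 0.658 (Gvin1) from that mean, with Tgtp1 at 0.378, Irgm1 at 0.38 and Iigp1 at 0.503. Tgtp1, Irgm1, Iigp1 and Gvin1 were thus farther from the family's mean than all 10 of these outside genes. Those 10 were picked as the nearest of 13320, so their smaller distances follow in part from that choice. Gm12185 shares exon bases with Tgtp1, so its profile may not be independent of the members. Gbp2 was at 50.3 and 50.4 CPM in DMXAA libraries, against 20.7, 88.8 and 25.8 CPM in vehicle libraries 1, 2 and 3. Gbp6 was at 89.8 and 64.3 CPM in DMXAA libraries, against 11.9, 135 and 26.3 CPM in vehicle libraries.

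The guanylate-binding proteins, which act on the same vacuoles as the IRGs, had estimates above 0 in 10 of 10 tested genes (11 listed). Over all tested genes, 7614 of 16226 estimates were above 0. The median of this list was 0.58, and 1.43 without vehicle library 2, which was highest for 5 of the 10, against 25.8% of all genes. Gbp11 and Gbp9 had an unadjusted p below 0.05 in edgeR's test, both higher, against 3.89% of all genes counted as higher. Gbp11 was at 18.6 and 6.32 CPM in DMXAA, against 0.487, 1.99 and 0.444 CPM in vehicle (log2 fold change 3.68, SE 0.71), and Gbp9 was at 32.2 and 34.3 CPM, against 13.6, 24.4 and 13.8 CPM. For both genes the DMXAA libraries lay above all vehicle libraries, which was so for no member and for 13.7% of all genes.

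Interferon-responsive genes outside the GTPases are given by list. Of 24 tested interferon gamma responsive genes (25 listed), 19 were highest in vehicle library 2, 8 had estimates above 0 and none had an unadjusted p below 0.05, with a median log2 fold change of -0.20. Of 23 type I interferon responsive genes, 4 were highest in vehicle library 2, 23 had estimates above 0, 12 were higher at an unadjusted p below 0.05, and for 16 the DMXAA values exceeded every vehicle value, with a median of 0.75. Over all tested genes 25.8% were highest in vehicle library 2, 7614 of 16226 had estimates above 0 and 3.89% were higher at that threshold. For 13.7% of them the DMXAA values exceeded every vehicle value. Without vehicle library 2 the median was 0.43 for the interferon gamma list, with 9 of 23 genes higher at that threshold. For the type I list it was 1.06, with 21 of 23 higher, against 6.73% of all genes. That library was set aside after values were seen, and both lists had a median excess in it. Their results without it follow in part from that choice, and the share over all genes is no fair measure for them. With all libraries edgeR's test called none of either list after adjustment. Rsad2, an antiviral enzyme of the type I list, was at 59.5 and 67.3 CPM in DMXAA, against 38.0, 40.3 and 42.3 CPM in vehicle, with an adjusted p of 0.535 in edgeR's test and 0.0013 in DESeq2. Per gene, the median excess of vehicle library 2 over the mean of vehicle libraries 1 and 3 was 7.1-fold for the members, 3.31-fold for the guanylate-binding proteins, 1.98-fold for the interferon gamma list and 1.57-fold for the type I list, against 0.999-fold over all genes. The same medians for the mean of the DMXAA libraries were 2.69-fold for the members, 2.65-fold for the guanylate-binding proteins, 1.33-fold for the interferon gamma list, 2.02-fold for the type I list and 0.996-fold over all genes. Both sets of folds were taken after adding 0.5 CPM and share vehicle libraries 1 and 3 as their base. No difference between lists was tested.

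**Figure D4:**
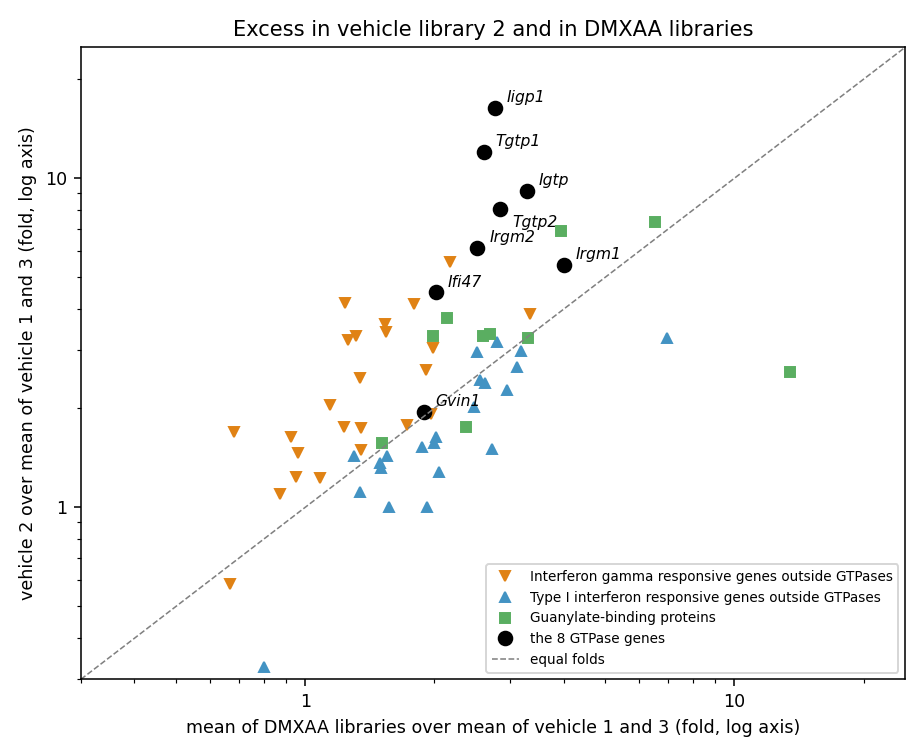
Each tested gene of 4 lists by its fold over the mean of vehicle libraries 1 and 3, for the mean of the DMXAA libraries (horizontal, log axis) and for vehicle library 2 (vertical, log axis). Folds were taken after adding 0.5 CPM to each level. Points above the dashed line were higher in vehicle library 2 than in the DMXAA mean, as all 8 members and most interferon gamma responsive genes were, with Iigp1 farthest among the members at 2.77 and 16.4 and Gvin1 nearest to the line at 1.89 and 1.95.

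The inducers and regulators of the family were set beside it. Ifng, the gene for interferon gamma, had 1 and 0 counts in DMXAA libraries and 0, 0 and 1 counts in vehicle libraries 1, 2 and 3, and Ifnb1 had none in any library, so neither cytokine transcript could be compared at this depth. Irf1 was at 39.4 and 30.2 CPM in DMXAA libraries, against 26.9, 88.5 and 25.9 CPM in vehicle libraries, and Ciita at 25.9 and 15.5 CPM, against 10.8, 71.0 and 22.4 CPM. Both regulators were highest in vehicle library 2, and their DMXAA means were 1.31-fold (Irf1) and 1.24-fold (Ciita) above the mean of vehicle libraries 1 and 3, against 1.89-fold or more for every member. Irf8, a myeloid and B cell member of the same family as Irf1, was at 31.6 and 26.0 CPM in DMXAA, against 19.9, 44.2 and 27.2 CPM in vehicle.

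Irf7, the main amplifier of type I interferon, differed from the members in its order of libraries. It was at 343 and 478 CPM in DMXAA libraries, against 48.8, 193 and 68.4 CPM in vehicle libraries 1, 2 and 3, so the groups did not overlap (log2 fold change 1.99, SE 0.54, unadjusted p = 0.00831 in edgeR's test). The receptor genes Ifngr1 and Ifngr2 were at 36.5 and 34.0 CPM and at 24.9 and 21.2 CPM in DMXAA, against 37.9 to 44.4 CPM and 25.6 to 29.6 CPM in vehicle. The kinase gene Jak1, which serves both receptors, was the only one of 14 interferon gamma signalling genes with an unadjusted p below 0.05 in edgeR's test (adjusted p = 0.741), a share near the 6.55% of all genes, at 177 and 177 CPM in DMXAA, against 142 to 157 CPM in vehicle. Of 8 type I signalling genes 2 were higher and 1 lower at that threshold, against 3.89% and 2.65% of all genes. The 2 higher ones were Irf7 and Usp18, which are also on the type I interferon responsive list and were counted there. The median log2 fold change of the 8 was 0.17.

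Genes of autophagy and of the parasite vacuole are listed next. Of 16 autophagy genes, 4 had estimates above 0, against 7614 of 16226 over all genes, and the median log2 fold change was -0.07. The 16 include genes of ATG8 conjugation, the autophagy machinery needed for IRG loading. Ulk1, Becn1, Sqstm1, Optn and Calcoco1 are on the list too but are not part of that machinery. Both DMXAA libraries lay below the 3 vehicle ones for 5 of the 16, against 12.3% of all genes, and 1 of the 16 passed an unadjusted p below 0.05 in edgeR's test, a share near the 6.55% of all genes. That gene was Map1lc3a, at 63.7 and 62.5 CPM in DMXAA, against 79.8, 84.9 and 71.8 CPM in vehicle. Of 7 ubiquitin ligase and adaptor genes of the parasite vacuole, 2 were higher at that threshold, against 3.89% of all genes. These included Rnf213, at 142 and 164 CPM in DMXAA, against 95.1, 134 and 94.2 CPM in vehicle.

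Marker sums of immune cells, which can carry IRG transcripts, were not highest in vehicle library 2. T and NK cell markers (16 of 18 tested) summed to 38.2 and 25.8 CPM in DMXAA libraries, against 22.1, 24.6 and 35.8 CPM in vehicle libraries 1, 2 and 3, with 0 of the 16 highest in vehicle library 2. Macrophage, monocyte and dendritic cell markers (14 of 15 tested) summed to 264 and 234 CPM in DMXAA, against 214, 213 and 310 CPM in vehicle, and 3 of the 14 were highest in vehicle library 2. Endothelial markers (10 of 10 tested) summed to 788 and 865 CPM in DMXAA, against 841, 535 and 787 CPM in vehicle, so vehicle library 2 was the lowest. Mesangial and fibroblast markers (10 of 10) were also lowest there, at 517 and 624 CPM in DMXAA, against 637, 320 and 444 CPM in vehicle. Of the other lists, vehicle library 2 was highest for 1 of 6 B cell markers, for 0 of 5 neutrophil, red cell and adipocyte markers each and for 0 of 7 urothelial markers. It was highest for 25.8% of all genes. Red cell markers were lower in DMXAA at an unadjusted p below 0.05 in edgeR's test for 5 of 5 tested (6 listed), with sums of 52.4 and 29.9 CPM in DMXAA, against 281, 170 and 73.4 CPM in vehicle, a median log2 fold change of -2.06, and 2.65% of all genes counted as lower. Urothelial markers summed to 103 and 109 CPM in DMXAA, against 258, 118 and 138 CPM in vehicle, so vehicle library 1 stood apart there too. The neutrophil sum was 5.6 and 7.41 CPM in DMXAA, against 4.11, 21.5 and 52.8 CPM in vehicle. The adrenal cortex genes Cyp11b1 and Cyp11b2 and the muscle gene Myh4 were at 0 in every library. The part of cell make-up in the IRG levels was not tested.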

How the data were processed

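Bulk kidney RNA was sequenced in 2 DMXAA and 3 vehicle samples. The authors deposited raw read counts per Ensembl gene ID; the build was mm10 and the tools were featureCounts, Subread, HISAT2 and DESeq2 1.16.1, per the submitters' processing notes. Each tool's role, the annotation, the strand setting and how multiply mapping reads were handled are not stated there. The labels name both a TruSeq and a NEBNext kit without assigning them, so no library batch could be tested. GENCODE M21 gave symbols for 99.8% of IDs.

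The counts were tested with edgeR 4.0.16 in R 4.3.3 (quasi-likelihood F test, two-sided, TMM scaling, default expression filter, group as the only term). Of all IDs 16226 genes were tested, including all 8 members, and p-values were adjusted over them by Benjamini-Hochberg, with calls below 0.05. The biological coefficient of variation was 19%. CPM are TMM-normalised. Every pair of libraries differed by more than sampling noise. The fits were checked on simulated counts.

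The members and 20 gene lists were chosen with earlier results of these data known. Named genes are the members, the measured genes of their family, up to 4 genes per list with the smallest p, 9 preset regulators and the 10 nearest profiles. Some genes that meet this rule are not reported here. The neighbours and the genes high in vehicle library 2 were named after their values were seen. Alternatives were DESeq2 1.42.0, RLE scaling, other filters, robust and bias-adjusted fits, the replicate number as a block, and each library left out. Levels per kb were added after seeing the data.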

Additional observations from a re-analysis of the deposited data

How the results depend on the processing

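No alternative put a member past an adjusted p of 0.05. The number of genes called over the whole table was 54 with DESeq2, 34 without an expression filter, 4 with the replicate number as a block and 0 to 2 with each library left out, against 0 with edgeR as reported; the cause was not tested. Of the genes named, Rsad2 was called with DESeq2 (adjusted p = 0.0013), and Rsad2 (0.041), Irf7 (0.041) and Gbp11 (0.00536) were called by edgeR without the filter, all higher. RLE scaling, a filter of at least 1 CPM in 2 libraries, and the robust and bias-adjusted fits called 0 genes and kept every member's sign. The members' median ran from -0.59 (without vehicle library 1) to 1.44 (without vehicle library 2). Deviations from the group means correlated at 0.07 for both same-numbered pairs. The deviations of the DMXAA libraries mirror each other, so those values are not separate checks and cannot exclude a pairing. With the replicate block the median was 0.09. The sign then turned for Igtp (0.21), Irgm2 (0.10), Ifi47 (0.09), Tgtp2 (0.05), Cxcl10 (0.10) and Apol9b (0.17). With each library left out in turn, log2 fold changes spanned 0 for these genes: Igtp -0.65 to 1.73, Irgm2 -0.53 to 1.34, Iigp1 -1.68 to 1.48, Ifi47 -0.53 to 1.04, Tgtp1 -1.37 to 1.41, Tgtp2 -0.71 to 1.56, Gm12250 -0.33 to 1.54, F830016B08Rik -0.30 to 1.58, Gm12185 -0.67 to 1.52, Gm4841 -1.36 to 1.90, Cxcl10 -0.69 to 1.16, Apol9b -0.47 to 1.11, Apol9a -0.01 to 1.64, Tap1 -0.57 to 0.86, Gbp2 -0.19 to 1.12, Gbp6 -0.07 to 2.01, Irf1 -0.73 to 0.40, Irf8 -0.32 to 0.29, Ciita -1.18 to 0.32, Psme2b -0.36 to 0.27, Zfp672 -0.03 to 0.14, Gapdh -3.81 to 0.35, Psmb9 -0.66 to 0.63 and Psmb10 -0.83 to 0.34. Irgm1 (0.27 to 2.01) and Gvin1 (0.29 to 1.01) stayed above 0. Depth limits the cytokine transcripts Ifng and Ifnb1, and not the members, which had 52 or more counts in every library.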
